A study of Canis lupus familiaris with 13 samples.

Results

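Heart tissue RNA of 7 dogs with dilated cardiomyopathy was compared with that of 6 mongrel dogs, to look for genes that differ in both diseased breeds and that do not differ after pacing. All 13 samples of the series took part, with 1 Affymetrix canine array each. The diseased side held 3 Dobermans (K, L and R) and 4 Boxers (1 to 4), labelled DCM for dilated cardiomyopathy. The mongrel side held 3 control dogs (P1, P4 and P9) and 3 dogs labelled as paced (LV01, LV02 and LV04). Samples were placed on a side by their titles, and the 2 groups within a side were given equal weight. The labels give no age, treatment or stage of disease, and for the paced dogs no pacing rate or length. No healthy Doberman or Boxer was analysed here, so that breed and disease cannot be told apart in any value below.

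Dilated cardiomyopathy enlarges the ventricles and weakens their contraction. It arises spontaneously in Dobermans, and Boxers are prone to a heart muscle disease in which arrhythmia is prominent and dilation can follow. Rapid pacing of a healthy dog heart brings on a dilated, failing ventricle without an inherited defect, and is used as an experimental model of heart failure. Failing heart muscle is known to lower its use of fatty acids, to raise genes of the wall stress response, and to lay down matrix.

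The values are MAS5 signals, a measure of probe brightness that the authors scaled to a common level on every array. They were analysed as log2(signal + 16), so that folds of dim genes are understated. A gene is represented by its brightest tested probe set unless another is named, and 5242 genes and 14302 probe sets were tested. Differences are log2 values with a standard error (SE) from limma, and adjusted p-values are limma's with Benjamini-Hochberg adjustment over all probe sets, called at 0.05. They measure the spread between separately named samples. Tissue identity followed the labels: all 22 heart muscle markers on the array were measured, and their summed signal was 351541 to 677867 in the breeds and 306100 to 480967 in the mongrels. No tested probe set carried the symbols NPPA, NPPB, MYH6 or PLN.

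The arrays of the 2 sides differed before any gene was tested. The actin control probe sets give a log2 ratio of 3' to 5' signal, and such a ratio is higher where RNA is shortened or copied incompletely. Here the 5' probe set was the brighter on every array, and whether the ratio follows RNA quality was not tested. The ratio was -1.97 to -0.085 on the 7 breed arrays and -3.17 to -2.20 on the 6 mongrel arrays. No breed array overlapped a mongrel array (exact two-sided permutation test, p = 0.000583, the smallest that 1716 splits allow, and 0.00233 after adjustment over 4 array measures). The linear 3' to 5' ratio of GAPDH was 1.08, 2.10 and 3.62 in Dobermans K, L and R. It was 0.967 to 1.09 on the other 10 arrays, the Boxers among them. The median signal was high in the paced dogs, at 207 to 219, and in Dobermans L and R, at 234 and 219, against 132 to 160 elsewhere. Arrays correlated with the rest of their group at 0.789 to 0.844 among the Dobermans and at 0.947 to 0.969 elsewhere.

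**Figure D1:**
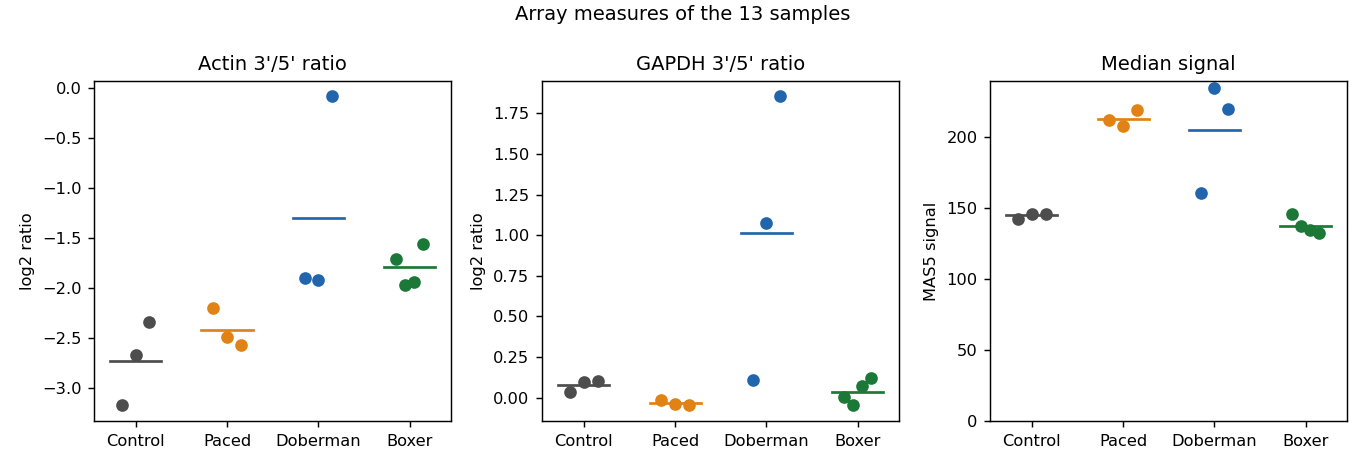
Actin 3'/5' log2 ratio (left), GAPDH 3'/5' log2 ratio (middle) and median MAS5 signal (right) of each array, by group, with bars at the group means. The 7 breed arrays lie above the 6 mongrel arrays in the actin ratio, at -1.97 to -0.085 against -3.17 to -2.20, and only Dobermans L and R exceed 2 in the linear GAPDH ratio, with 2.10 and 3.62.

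Between both breeds and all mongrels, 1193 of 14302 probe sets passed (8.34%), with 632 higher (4.42%) and 561 lower (3.92%) in the breeds. Counted as genes, 441 passed (8.41%), with 258 higher and 183 lower. The 7 breed samples lay wholly above the 6 mongrel samples in 67 of the 632 and wholly below in 59 of the 561, where 0.552% and 0.475% of all tested probe sets lay so. Centring each array on its median gave 1077 higher and 329 lower, and quantile normalization 959 and 706, so the balance of rises and falls depends on the scaling. A fit with 1 mean for each side, in which the spread between groups counts as error, left 8 probe sets, and a fit with the actin ratio as a covariate left 76. That ratio goes with the sides, so its share in the calls cannot be told apart from theirs. Leaving out any single control, paced dog or Boxer gave from 486 probe sets, without P1, to 675, without Boxer 3. Leaving out a Doberman gave 4273 without K, 1113 without L and 1065 without R, and without both L and R 1586 passed, 684 of the 1193 among them. Doberman K is then the only Doberman, and is assumed to vary like the samples of the other groups, here and wherever L and R are left out. A call near the threshold could therefore end with almost any omission, and the samples whose omission ended a gene's call are named beside it.

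A pooled difference need not hold in each breed. A probe set was called shared when the Dobermans and the Boxers each differed from the mongrels in the same direction, judged by the larger of the 2 p-values. Of 14302 probe sets, 9 were shared (0.0629%), with 5 higher and 4 lower. With the GAPDH or the actin ratio as a covariate 0 were shared, and with array weights 2 of the 9 were still called. At an unadjusted p under 0.05 there were 732. Leaving out 1 sample gave 0 without Doberman R, 1 without P1, LV04 or Boxer 3, 2 to 4 without P4, P9, LV02, Doberman L or Boxers 1, 2 or 4, 6 without LV01 and 19 without Doberman K. The strictest form asked for each breed to differ from the controls and from the paced dogs, and limma called 0 probe sets (0%). There, 95 probe sets had an unadjusted p under 0.05, of which 56 were higher and 39 lower in the breeds, and the smallest adjusted p was 0.648. No setting tried moved that count from 0.

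Of the 9 shared probe sets, 6 carry a symbol: UCHL1, C2 and MAP1A were higher, and MIA3, CBY1 and ACTA1 lower. UCHL1, a ubiquitin hydrolase of nerve cells that is also known to be induced in stressed heart muscle, read 803, 1220.5 and 2264 in the 3 controls and 1169.8, 738 and 512.5 in the 3 paced dogs. It read 7583, 6262 and 4316 in the Dobermans and 5442, 4479.5, 5022.5 and 2747 in the Boxers. Every breed sample lay above every mongrel sample, with a 4.97-fold difference (log2 2.31, SE 0.26, adjusted p = 0.000625) and an adjusted p of 0.0315 for both breeds at once. UCHL1 passed between breeds and mongrels in each alternative tried, its second probe set rose as well, and the paced dogs differed from the controls by -0.76 on the log2 scale (95% interval -1.59 to 0.07).

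C2, a component of the complement cascade, was at 166 to 544 in the breeds, 91.6 to 119 in the controls and 21.1 to 51.6 in the paced dogs, with a log2 difference of 2.22 (SE 0.27, adjusted p = 0.00102). The order was thus breeds, controls, paced, with no overlap between them. MAP1A, a protein that binds microtubules, was lowest in the paced dogs, which read 23.1, 17.6 and 21.8, while the controls read 134.5, 132 and 168, the Dobermans 493, 1030.5 and 1016 and the Boxers 343, 134, 227.5 and 257. Boxer 2 lay within the range of the controls. The mongrel median was 71.6 for C2 and 77.55 for MAP1A, under the filter level of 108. Both genes passed the filter only with their breed signals counted, and their folds depend on the added 16. In the other direction MIA3, which helps load collagen into vesicles at the endoplasmic reticulum, was at 67.1 to 143 in the breeds, 169 to 205 in the controls and 443 to 518 in the paced dogs (log2 -1.46, SE 0.18, adjusted p = 0.000945). CBY1, an inhibitor of beta-catenin, was called by 1 of its 2 probe sets (1603574_s_at), which read 99.7 to 178 in the breeds, 154 to 221 in the controls and 557 to 731.5 in the paced dogs. Its other probe set differed by -0.17 and did not pass. The second MIA3 probe set differed by -1.35 (adjusted p = 0.0959). Against the controls alone, the mean of both breeds passed for MAP1A (log2 1.48, adjusted p = 0.0399). That mean joined 2.36 in the Dobermans with 0.61 in the Boxers, and the Boxer difference did not pass (adjusted p = 0.724). The mean of both breeds did not pass for C2 (1.54, adjusted p = 0.0539), MIA3 (-0.84, adjusted p = 0.0894) and the CBY1 probe set (-0.36, adjusted p = 0.345).

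The lowest shared p belonged to 1 of 4 probe sets of ACTA1, skeletal alpha-actin, which heart muscle also expresses. Probe set 1605145_at read 3409.9, 2679.7 and 2558 in the controls, 1382, 910.1 and 1334 in the paced dogs, 299, 552 and 230.1 in the Dobermans and 167, 157, 183 and 88.6 in the Boxers. The 4 groups did not overlap, and the breeds were 7.82-fold lower than the mongrels (log2 -2.97, SE 0.22, adjusted p = 2.94e-05). The brightest ACTA1 probe set gave another picture, with 5372 to 6353 in the paced dogs against 645 to 1025 in the controls and 320.5 to 1345 in the breeds. Its pooled difference was -1.14 (adjusted p = 0.0204, 0.0505 without control P9) while against the controls alone the breeds differed by 0.31 (adjusted p = 0.603). The remaining probe sets differed by -1.27, which passed, and 0.30, which did not. The probe sets of ACTA1 thus order the groups differently, and which of them reads this transcript alone was not tested. The other 3 shared probe sets have no symbol. One of them, 1583573_s_at, read 12, 9.1 and 38 in the controls, 127, 44.1 and 33 in the paced dogs and 273 to 1030.5 in the breeds, and a mean under 108 in the mongrels makes its log2 difference of 3.61 depend on the added 16.

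Pacing divided the pooled calls. Paced dogs differed from controls in 1747 probe sets (12.2%), 1212 higher (8.47%) and 535 lower (3.74%). The balance turned to 629 higher and 846 lower under quantile normalization and to 530 and 3394 under median centring. Of the 632 probe sets higher in the breeds, paced dogs were called below the controls in 175 and above them in 9. Of the 561 lower in the breeds, paced dogs were called above the controls in 154 and below in 7. After centring, paced dogs were called below the controls in 651 of 1077 rises and above them in 99 of 329 falls. Paced dogs form part of the mongrel mean, so a low paced group adds to a rise in the breeds. A probe set was called flat after pacing when the 95% interval of paced minus control lay within 2-fold either way. That held for 36.7% of the rises and 36.7% of the falls, against 45.3% of all tested probe sets. Among the genes that passed without overlap of samples it held for 75.7% of 37 rises and 70.8% of 24 falls, against 56.3% of all genes. Lack of overlap and flatness draw on the same mongrel values, so a higher share there is no separate result about pacing. Against the 3 controls alone the breeds differed in 98 probe sets (0.685%), 50 higher and 48 lower, and against the 3 paced dogs alone in 2614 (18.3%). These 2 comparisons share the breed samples. The count against the controls was 8 without P1 or P4, 45 without P9, 39 to 44 without 1 paced dog, 23 to 35 without 1 Boxer, 3288 without Doberman K and 279 without Dobermans L and R. The count against the paced dogs was 1259 to 1378 without 1 paced dog, 4615 without K and 4328 without L and R. Pacing itself gave 868 without P1, 822 without P4, 1114 without P9, 811 to 1017 without 1 paced dog and 3315 without K.

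**Figure D2:**
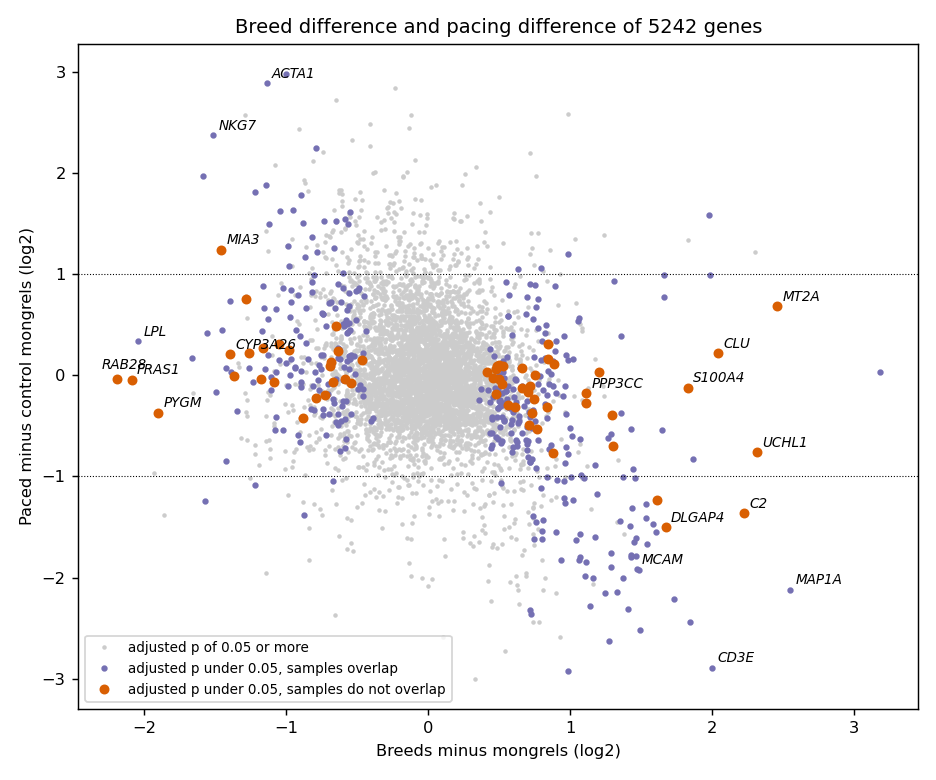
Log2 difference of breeds minus mongrels (horizontal) against paced minus control mongrels (vertical) for 5242 genes, 1 point each; orange points passed without overlap of samples, purple points passed with overlap, and dotted lines mark 2-fold. The points of UCHL1, CLU, S100A4 and PPP3CC, which rise, and of FRAS1, RAB28 and PYGM, which fall, lie within 2-fold for pacing. Of these, S100A4, PPP3CC and FRAS1 were called flat after pacing. The pacing intervals of UCHL1, CLU, RAB28 and PYGM reached past 2-fold. C2, MAP1A, MCAM and CD3E lie low after pacing and MIA3, NKG7 and ACTA1 high.

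A looser rule asked that the mean of both breeds differ from the controls and from the paced dogs, with a flat response to pacing, and it held for 22 probe sets, 8 higher and 14 lower. It does not ask that each breed differ, and it was set after the data were seen. It found 0 probe sets without P1, 1 without P4, 2 without P9, 6 without any single paced dog, 3 to 8 without any single Boxer and 1144 without Doberman K. With the actin ratio as a covariate it found 0, and after median centring it found 3, none of them among the 22. Of the 22, 14 have a gene symbol: S100A4, COL22A1, CSTB, PPP3CC and TMSB10 rose, and FRAS1, CYP3A26, CIAO2B, ASB11, ALDH7A1, KDM1A, HJV, PAM16 and FHL2 fell.

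PPP3CC, which encodes a catalytic subunit of calcineurin, the calcium-dependent phosphatase of hypertrophic signalling, was the most even of the rises. Its signals were 1094, 963 and 1230.4 in the controls, 1247, 968 and 731 in the paced dogs, 1926, 2092 and 2876 in the Dobermans and 2201.5, 2471.5, 2357 and 1832 in the Boxers. The Dobermans and Boxers overlapped each other and no mongrel, and each breed stood about as far above the mongrels, by 1.13 and 1.09 on the log2 scale (2.16-fold, SE 0.15, adjusted p = 0.0017). For both breeds at once the adjusted p was 0.0525, which missed the threshold. Paced dogs differed from controls by -0.18 (95% interval -0.66 to 0.30).

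S100A4, which binds calcium and marks mesenchymal cells, read 245, 559 and 237 in the controls, 411, 201 and 302 in the paced dogs, 1077, 1089.6 and 721 in the Dobermans and 1155, 867, 1250.4 and 2595.5 in the Boxers. Here the Boxers reached highest, and the breeds were 3.55-fold above the mongrels (log2 1.83, SE 0.28, adjusted p = 0.00344). CSTB, cystatin B, an inhibitor of lysosomal cathepsins, held a narrow level of 1585 to 2055 in all 6 mongrels and stood at 4518 to 6962 in the Dobermans and 2372 to 5349 in the Boxers (2.31-fold, adjusted p = 0.0026). COL22A1, a collagen of tissue junctions in muscle, was at 78.7 to 181 in the mongrels, 193 to 223 in the Boxers and 393 to 605 in the Dobermans (2.46-fold, adjusted p = 0.0017). Its Boxers cleared the highest mongrel, control P1, by little, and their difference from the mongrels of 0.71 did not pass (adjusted p = 0.0809). TMSB10, which binds actin monomers, was at 2724 to 4549.9 in the breeds and 1551.5 to 2286 in the mongrels (log2 0.84, adjusted p = 0.00471).

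CLU and MT2A were among the largest rises, and their intervals for pacing reached past 2-fold. CLU, clusterin, a secreted chaperone that rises with tissue injury, read 1681, 1809.8 and 1578 in the controls and 13149.8, 12089 and 9493 in the Dobermans, with 5228, 4293, 4174 and 6310.1 in the Boxers. Paced dogs ranged from 951 to 4108.5, and LV01 alone came near the lowest Boxer. The breeds were 4.11-fold higher (log2 2.04, SE 0.26, adjusted p = 0.00115), and paced dogs differed from controls by 0.22 (95% interval -0.59 to 1.02). MT2A, a metallothionein that binds zinc and copper, read 532, 474 and 396 in the controls, 912, 557 and 838.5 in the paced dogs, 7954, 3317 and 3175 in the Dobermans and 1251, 3192, 917 and 10734 in the Boxers. Boxer 3 lay just above paced dog LV01, and Boxer 4 was highest of all (5.48-fold, SE 0.46 on the log2 scale, adjusted p = 0.00916). Its paced dogs differed from the controls by 0.68 (95% interval -0.77 to 2.13). All 3 tested MT2A probe sets rose in the pooled comparison. In the dimmest of them the Boxers lay below the controls, with a log2 difference of -0.71. There the Dobermans differed from the controls by 0.95 and the paced dogs by -2.02. SYNPO2, an actin-binding protein of Z-discs and smooth muscle, was at 382 to 1001.5 in the breeds and 172 to 284 in the mongrels (2.16-fold, adjusted p = 0.00727).

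**Figure D3:**
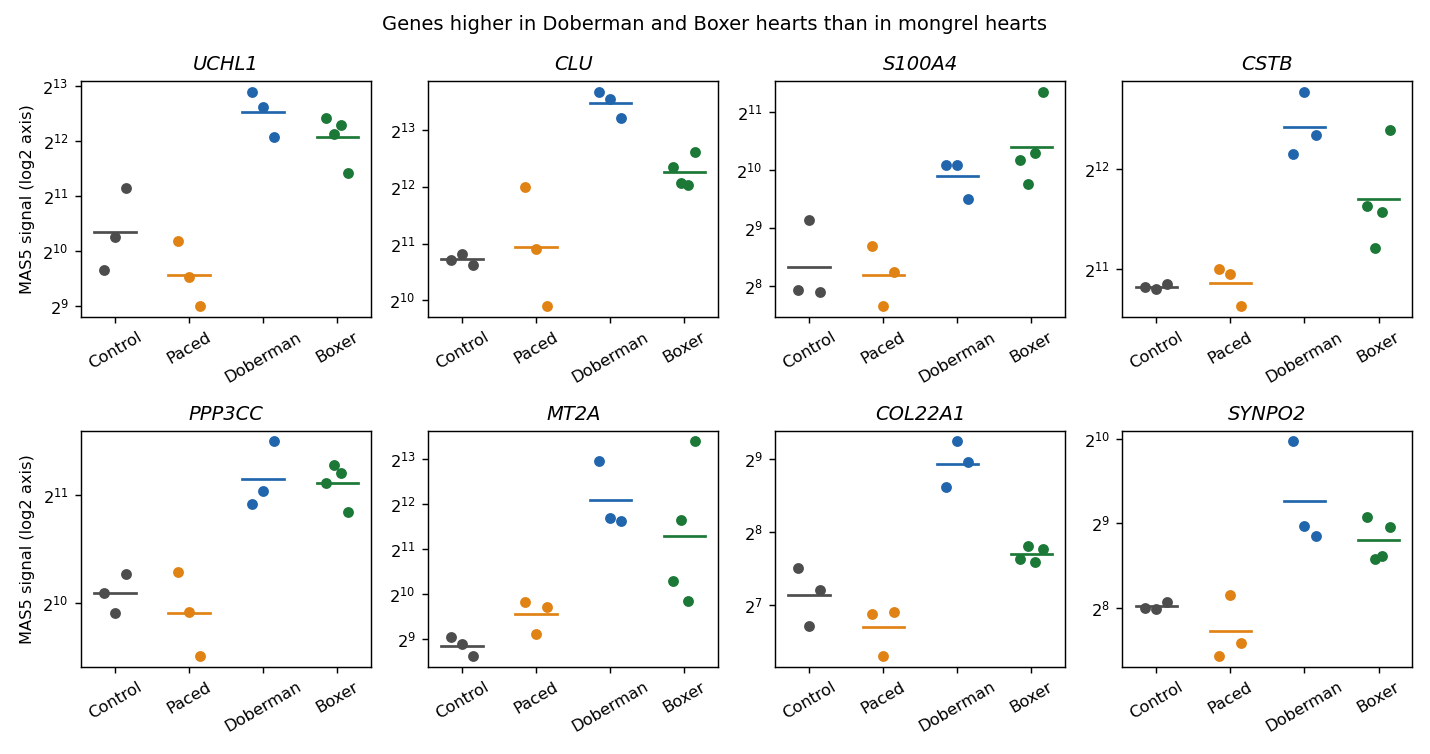
MAS5 signal on a log2 axis of 8 genes that rose in the breeds, 1 point per sample, with bars at the geometric mean of each group. For every gene shown the 7 breed samples lie above the 6 mongrel samples, and PPP3CC has both breeds at one level, 1832 to 2876 against 731 to 1247 in the mongrels.

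Other rises were smaller against the controls than against all mongrels. DLGAP4, a scaffold protein of synapses, was at 22.3 to 80.7 in the paced dogs, 118 to 168 in the controls and 174.5 to 703 in the breeds, and its pooled 3.19-fold difference (adjusted p = 0.00395) was 1.89-fold against the controls (adjusted p = 0.163). SHMT2, a mitochondrial enzyme of serine and folate metabolism, was at 44.5 to 342 in the paced dogs, 247 to 434 in the controls and 479 to 1141 in the breeds, 3.05-fold higher over all mongrels (adjusted p = 0.0162) and 1.99-fold over the controls (adjusted p = 0.221). PMEPA1, an inhibitor of TGF-beta signalling that TGF-beta induces, stood at 197 to 362 in the breeds and 36.2 to 151 in the mongrels, with paced dog LV02 lowest (2.46-fold, adjusted p = 0.008). Against the controls alone it differed by 1.93-fold (adjusted p = 0.13).

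FRAS1, an extracellular protein that anchors basement membranes, had the largest fall among the named genes of this rule. It read 631, 656 and 437 in the controls, 469.6, 506 and 689.8 in the paced dogs, 252, 294, 126 and 156 in the Boxers and 167, 37.3 and 48.4 in the Dobermans. The Dobermans were lowest, with L and R under the filter level of 108, and the breeds were 4.25-fold below the mongrels (log2 -2.09, SE 0.29, adjusted p = 0.00182). Paced dogs differed from controls by -0.05 on that scale (95% interval -0.95 to 0.86). CYP3A26, a dog cytochrome P450 best known from liver, was at 573 to 889.7 in the mongrels, 297 to 366 in the Boxers and 125 to 306 in the Dobermans (2.62-fold lower, SE 0.19 on the log2 scale, adjusted p = 0.0017). PAM16, a part of the motor that pulls proteins into mitochondria, read 1296, 1389.5 and 1152 in the controls, 1113, 1102.5 and 1044 in the paced dogs, 720.4, 489.9 and 659 in the Dobermans and 767, 880.5, 681.5 and 651 in the Boxers (1.73-fold lower, adjusted p = 0.00501). The mean of its other 2 probe sets differed by 0.02 and did not pass. ALDH7A1, an enzyme of lysine breakdown, was at 342 to 699.8 in the breeds and 700.3 to 1139 in the mongrels, so that the groups met without overlap (log2 -0.88, adjusted p = 0.0114). KDM1A, a histone demethylase, was called by probe set 1591849_at (97.5 to 189.8 against 229.6 to 338, adjusted p = 0.00937), while its other probe sets differed by a mean of 0.01. The Boxers alone differed from the mongrels by -0.78 for ALDH7A1 and -0.58 for this KDM1A probe set. Neither passed (adjusted p = 0.0557 and 0.102).

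The remaining 4 of these falls were uneven between the breeds. ASB11, an adaptor of a ubiquitin ligase in muscle, read 1728, 1285 and 908 in the Dobermans but 3262 to 4889 in the Boxers, which overlapped the 3387 to 4836 of the mongrels. FHL2, a LIM-domain protein of the sarcomere, had the same shape, with 6505 to 7645 in the Dobermans, 14422 to 18518 in the Boxers and 12440 to 20271 in the mongrels. HJV, a co-receptor in iron regulation, was at 310.1 to 651 in the Dobermans and 907 to 1289.7 in the Boxers against 1064 to 1718 in the mongrels. CIAO2B, which helps insert iron-sulfur clusters, went the other way, with 141 to 268 in the Boxers, 490.1 to 582 in the Dobermans and 568 to 1151 in the mongrels. Dobermans minus Boxers gave -1.62 for ASB11, -1.17 for FHL2, -1.22 for HJV and 1.25 for CIAO2B on the log2 scale, and each of these passed (adjusted p = 0.0017, 0.00204, 0.00436 and 0.00562). The Boxers differed from the mongrels by -0.09, -0.02 and -0.20 for ASB11, FHL2 and HJV, which did not pass (adjusted p = 0.85, 0.953 and 0.619). For CIAO2B the Dobermans differed from the mongrels by -0.64, which did not pass either (adjusted p = 0.0541). For ASB11 and CIAO2B the mean of other probe sets was 0.18 and 0.05.

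Falls outside the combined rule ranged wider. RAB28, a small GTPase, read 564, 579 and 1204 in the controls, 677, 783 and 680.3 in the paced dogs, 421, 122 and 85.8 in the Dobermans and 44.6, 324, 36.2 and 371 in the Boxers, and Boxers 1 and 3 stood far below 2 and 4 (4.57-fold lower, SE 0.50 on the log2 scale, adjusted p = 0.0212, 0.0524 without control P9). PLXNB1, a receptor for semaphorins, was at 20.4 to 105.5 in the breeds and 110.5 to 276 in the mongrels (log2 -1.28, adjusted p = 0.0135). Every breed sample was under the filter level of 108, so PLXNB1 was tested through its mongrel signals and its fold depends on the added 16. SECISBP2L, which binds RNA, was at 33.5 to 232 and 243 to 357 (log2 -1.26, adjusted p = 0.0172). NCAM1, a neural cell adhesion molecule, was at 75.5 to 323 in the breeds and 327 to 642 in the mongrels, which met at 323 and 327 (log2 -1.18, adjusted p = 0.0306). TEX30 fell by 1.36 (adjusted p = 0.037) and ZNF512, a zinc finger protein, by 1.08 (adjusted p = 0.025). Single samples carried several of these calls. NCAM1 missed the threshold with each single sample left out except P4, LV01, Doberman K, L, R or Boxer 4 (adjusted p up to 0.0774), TEX30 with each single sample left out except Doberman K, L or R (up to 0.0901) and ZNF512 without P9 or LV04 (up to 0.0614). DDIT4L, an inhibitor of mTOR signalling, overlapped between the sides, at 161 to 405 against 355 to 745 (log2 -1.07, adjusted p = 0.0111). With each gene taken at its brightest probe set, FRAS1, CYP3A26 and DDIT4L below and UCHL1, PPP3CC and CLU above had the smallest p of their direction for each breed against each mongrel group, and none of the 6 passed that test.

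**Figure D4:**
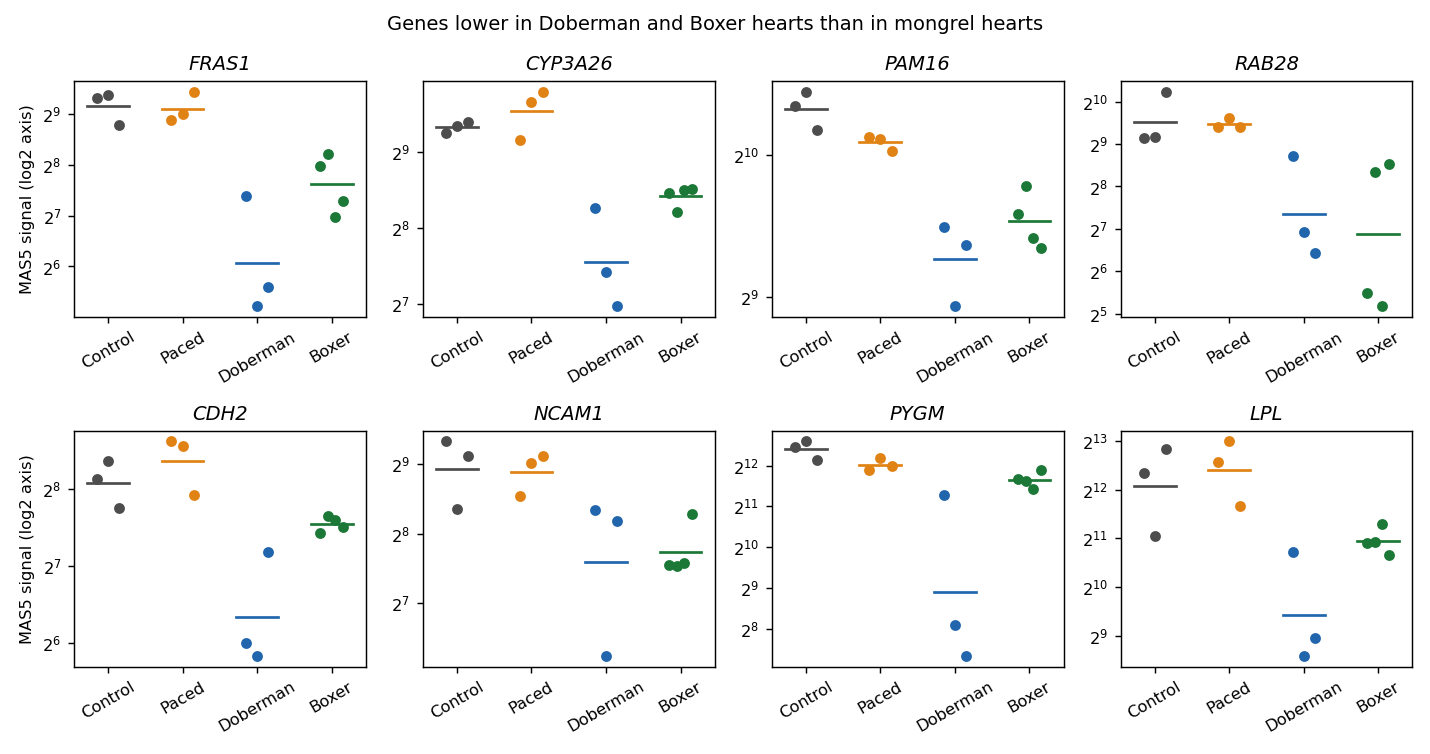
MAS5 signal on a log2 axis of 8 genes that fell in the breeds, 1 point per sample, with bars at the geometric mean of each group. FRAS1, CYP3A26 and PAM16 keep both breeds below all mongrels, RAB28 scatters over 36.2 to 371 among the Boxers, and PYGM and LPL are lowest in Dobermans L and R.

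Genes of fuel use fell more often than they rose. The mitochondrion burns fatty acids by beta-oxidation and feeds acetyl-CoA into the citric acid cycle, which supplies most of the fuel of a healthy heart. In the list of 28 tested genes for taking up and oxidizing fatty acids, 7 fell and 0 rose (25.0%, against 3.49% of all genes), with a median of -0.36 on the log2 scale against -0.0046 for all genes. Without Dobermans L and R 6 of the 28 fell, and with the actin ratio, which differed between the sides, as a covariate 0 did. LPL, the lipase that frees fatty acids from blood lipoproteins, read 5190.5, 2102 and 7338 in the controls, 6083, 8129 and 3263 in the paced dogs, 1682, 384 and 494 in the Dobermans and 1909, 1950.1, 2519 and 1612 in the Boxers. Control P4 overlapped the Boxers, and the breeds were 4.12-fold lower (log2 -2.04, SE 0.36, adjusted p = 0.00727). Its second probe set fell as well. DECR1, which prepares unsaturated fatty acids for oxidation, fell by 1.66 (adjusted p = 0.0393, up to 0.0883 with each single sample left out except Doberman K or R).

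Further falls in fatty acid use were largest in the Dobermans. ACAT1, a mitochondrial thiolase, read 3214, 986 and 1670 in the Dobermans, 6838 to 8160.2 in the Boxers and 5534 to 8070.4 in the mongrels. ACSL1, which activates fatty acids, was at 2599 to 3773.5, 6716 to 8656.5 and 5776 to 9469 in the same order, and ETFA, an electron carrier of beta-oxidation, at 2328 to 2807, 3919 to 5043 and 3997 to 7049.8. The Boxers overlapped the mongrels in all 3 genes. Over the whole list the median difference from the controls was -0.76 in the Dobermans, -0.20 in the Boxers and -0.28 in the paced dogs. Against the controls alone the mean of both breeds fell for 1 of the 28 genes and rose for 0, where 22 of all 5242 genes fell. Dobermans minus Boxers gave -1.50 for LPL, -2.06 for ACAT1, -1.35 for ACSL1 and -0.80 for ETFA, and each passed (adjusted p = 0.0311, 0.00204, 0.00145 and 0.00479).

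Among 27 genes that bring pyruvate into the citric acid cycle or run it, 4 fell and 0 rose (14.8%, against 3.49% of all genes), with a median of -0.42. With the actin ratio as a covariate 0 of the 27 fell, and with L and R left out 3 did. SUCLG2, a subunit of succinyl-CoA ligase, was at 569 to 1364 in the Dobermans, 1639.6 to 2206 in the Boxers and 1818 to 2989 in the mongrels (log2 -0.93, adjusted p = 0.0135). MPC1, a subunit of the carrier that brings pyruvate into mitochondria, was at 2944 to 7573, 10137 to 13477 and 10222 to 13708 (log2 -0.78, adjusted p = 0.0284, up to 0.0674 with each single sample left out except LV01, Doberman K, L, R, Boxer 3 or 4). DLST, part of the 2-oxoglutarate dehydrogenase complex, was wholly lower in the breeds, at 249.7 to 1419.6 against 1446 to 2021, but its call (0.0393 adjusted) ended with each single sample left out except Doberman K, with an adjusted p up to 0.0881. IDH3B, a subunit of isocitrate dehydrogenase, fell by 0.58 (adjusted p = 0.0342), missed the threshold with each single sample left out except P9, LV01, Doberman K, L or R (up to 0.0854), and its other probe sets differed by a mean of 0.20. List medians against the controls were -1.19 in the Dobermans, -0.20 in the Boxers and -0.38 in the paced dogs. Against the controls alone the mean of both breeds fell for 1 of the 27 genes and rose for 0.

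Glycogen and the respiratory chain gave few calls. PYGM, the muscle enzyme that breaks down glycogen, read 5631, 6157 and 4522 in the controls, 3773.5, 4676 and 4086 in the paced dogs, 2464, 274 and 163 in the Dobermans and 3271, 3125, 2751 and 3769.8 in the Boxers. All 7 breed samples were below all 6 mongrels, by a narrow margin in Boxer 4, and its second probe set fell too (log2 -1.90, SE 0.45, adjusted p = 0.0239, up to 0.0567 without P1, P4, LV02 or LV04). ALDOC, an aldolase, rose by 0.90 (adjusted p = 0.0326, up to 0.0752 with each single sample left out except LV01, Doberman K, L, R or Boxer 3). They were the 2 called members of 26 of glycolysis and glycogen use. In oxidative phosphorylation 1 of 51 fell and 0 rose (1.96%, against 3.49% of all genes), with a median of -0.19. It was NDUFS8 of complex I, at -0.40 (adjusted p = 0.0495, up to 0.109 with each single sample left out except Doberman K or L). Without both L and R 3 of the 51 fell, and with the actin covariate 0.

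Mitochondrial translation and import had 7 falls and 1 rise among 73 genes (9.59% and 1.37%, against 3.49% and 4.92% of all genes), with a median of -0.14. These counts were 6 and 2 without Dobermans L and R, and with the actin covariate 0 and 0. Against the controls alone 1 of the 73 fell and 0 rose. Besides PAM16, MRPL39 of the large mitochondrial ribosome subunit was lower in all breed samples, at 1182.5 to 2474 against 3050.1 to 3917 (log2 -0.72, SE 0.15, adjusted p = 0.0135). MRPL22 differed by -1.02 (adjusted p = 0.0489, up to 0.108 with each single sample left out except Doberman K). TIMM8B, a chaperone between the mitochondrial membranes, was at 113.5 to 827 in the breeds and 609 to 1703.5 in the mongrels (log2 -1.35, adjusted p = 0.0197, 0.0555 without P1). MRPL1 was at 428 to 965 in the Dobermans, 1835 to 1906 in the Boxers and 1183 to 2049 in the mongrels, and its call ended with each single sample left out except LV01, Doberman K, L or R (adjusted p up to 0.0822). The 1 rise was POLG, the mitochondrial DNA polymerase, at 0.52 (adjusted p = 0.0423, up to 0.0965 with each single sample left out except LV01 or Doberman K).

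**Figure D5:**
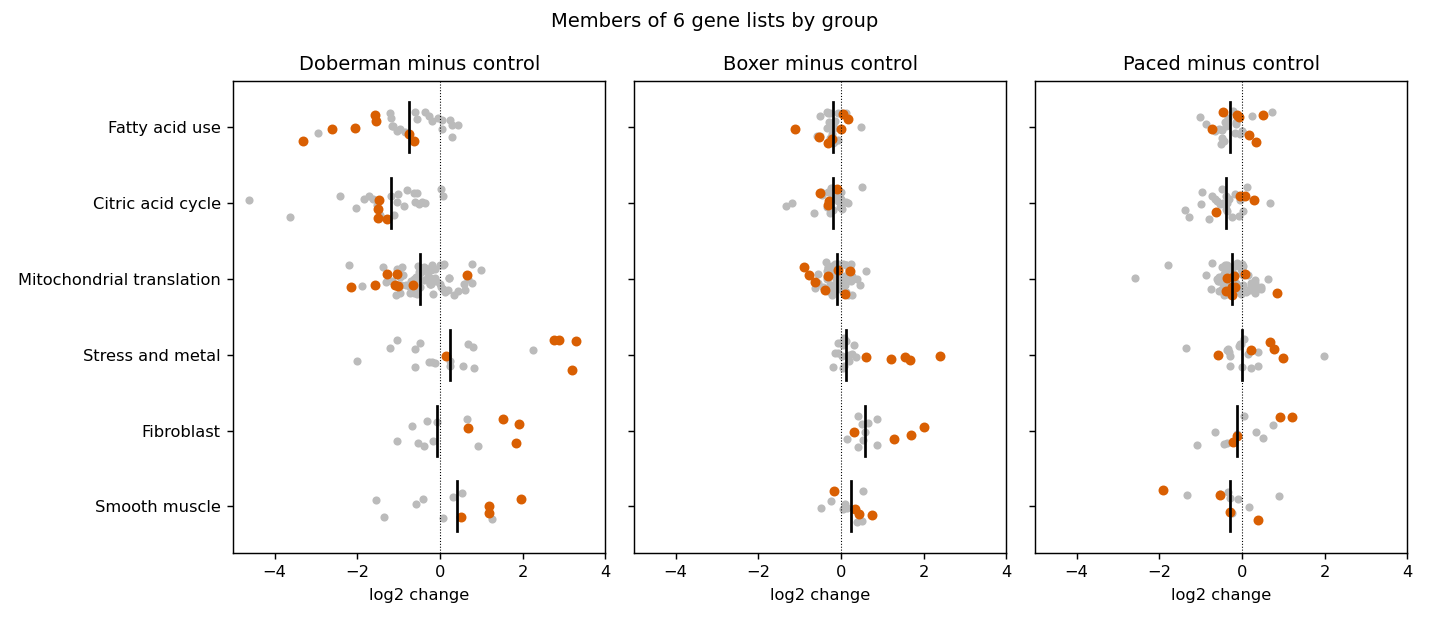
Log2 change from the controls of the members of 6 gene lists in Dobermans (left), Boxers (middle) and paced dogs (right); each point is a gene, orange points passed between breeds and mongrels, and black bars are list medians. The median of citric acid cycle genes is -1.19 in the Dobermans and -0.20 in the Boxers, and the called stress genes lie above 0 in both breeds.

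Genes of stress, p53 and metal response rose in 5 of 21 cases and fell in 0 (23.8%, against 4.92% of all genes), with a median of 0.26. In the absence of Dobermans L and R 6 rose, and with the actin covariate 2. CDKN1A, the p53 target that arrests the cell cycle, read 304, 398 and 916 in the controls, 1811, 1026 and 494 in the paced dogs, 5143, 5671 and 3840.3 in the Dobermans and 1378, 1192.5, 1472 and 2569 in the Boxers. Paced dog LV01 exceeded 3 of the 4 Boxers, and the breeds were 3.96-fold higher (log2 1.98, SE 0.31, adjusted p = 0.00395). PTGR1, a reductase of reactive lipid aldehydes and prostaglandins, was at 2693 to 3814 in the Dobermans, 600.5 to 1349 in the Boxers, 497 to 845 in the paced dogs and 374 to 423 in the controls (log2 1.66, SE 0.19, adjusted p = 0.000655). TXNRD1, a thioredoxin reductase, rose by 0.66 (adjusted p = 0.0429, up to 0.105 with each single sample left out except P9, Doberman K or Boxer 2), and CLU and MT2A are given above. Of the 5, 4 were also called against the controls alone, where 0.515% of all genes were. Immediate early and hypoxia genes rose in 3 of 15 cases and fell in 0 (20%, against 4.92% of all genes): IER2 by 0.88, JUNB by 0.97 and BNIP3, a mitophagy receptor, by 0.47. Against the controls alone 0 of the 15 passed. For IER2, JUNB and BNIP3 the Dobermans differed from the controls by 1.26, 1.33 and 0.69, and the Boxers by 0.64, 0.23 and 0.13. In the pooled comparison IER2 missed the threshold with each single sample left out except LV01, Doberman K, L or Boxer 3 (adjusted p up to 0.0843), JUNB with each single sample left out except LV01, Doberman K or Boxer 3 (up to 0.0871) and BNIP3 with each single sample left out except Doberman K, L or R (up to 0.0886). Without L and R 2 of the 15 rose, and with the actin covariate 0.

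IGFBP2, which binds insulin-like growth factors, was the 1 called member of 5 of that axis. It read 222, 28.2 and 44.4 in the controls, 587, 158 and 148 in the paced dogs, 733, 929 and 369 in the Dobermans and 591, 433, 436 and 623 in the Boxers. Controls P4 and P9 were under 108, paced dog LV01 reached into the breeds, and the pooled difference was 1.98 (SE 0.41, adjusted p = 0.0142). Against the controls it was 2.77 (adjusted p = 0.0312) and against the paced dogs 1.18 (adjusted p = 0.118), while paced dogs differed from controls by 1.59 (adjusted p = 0.0951).

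Fibroblast genes rose in 4 of 13 cases and fell in 0 (30.8%, against 4.92% of all genes), with a median of 0.51. Matrix genes rose in 4 of 34 (11.8%) and fell in 0, with a median of 0.28. Against the controls the fibroblast median was -0.07 in the Dobermans, 0.58 in the Boxers and -0.12 in the paced dogs. The matrix median was 0.40, 0.37 and 0.13 in the same order. Without Dobermans L and R 8 fibroblast and 8 matrix genes rose, and with the actin covariate 2 and 0. Against the controls alone 2 fibroblast genes and 1 matrix gene rose, where 0.515% of all genes did. In whole tissue, more cells of a type and more RNA per cell cannot be told apart. CILP, a matrix protein known from cartilage and from scarred heart, read 191, 193 and 255 in the controls, 565, 274 and 467 in the paced dogs, 878, 1604 and 365 in the Dobermans and 1072, 521, 1025 and 462 in the Boxers. The paced dogs lay above the controls and overlapped the breeds, and the pooled difference of 1.31 (SE 0.32, adjusted p = 0.028, up to 0.0673 without P1, P4, LV02, LV04, Boxer 1 or 3) stood beside one that did not pass against the paced dogs (0.84, adjusted p = 0.154). MFAP4, a protein of elastic fibres, was ordered the same way, at 222 to 392 in the controls, 494.5 to 958 in the paced dogs and 564 to 1735.5 in the breeds (log2 0.99, adjusted p = 0.0233, up to 0.0573 without P1, P9 or LV02). DCN, decorin, differed by 0.61 (adjusted p = 0.0256), THBS1, thrombospondin, by 0.83 (adjusted p = 0.0288) and COL5A1, a fibrillar collagen, by 0.52 (adjusted p = 0.0454). DCN missed the threshold with each single sample left out except P1, LV01, Doberman K, L, R or Boxer 2 (up to 0.0593), THBS1 without P1, P9, LV01, LV02, Boxer 2 or 4 (up to 0.0757) and COL5A1 with each single sample left out except LV04 or Doberman K (up to 0.104).

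The main fibrillar collagens did not pass. COL1A1 was at 441 to 2576 in the breeds and 287.5 to 1738 in the mongrels (log2 0.52, adjusted p = 0.446), and COL3A1 at 171 to 2982 and 625 to 2049 (log2 -0.29, adjusted p = 0.736), with Dobermans L and R lowest. SPP1, osteopontin, spanned 58.7 to 513 in the controls, 835 to 2381 in the paced dogs and 594 to 5681 in the breeds. Its pooled difference of 0.99 (adjusted p = 0.247) combined 2.27 against the controls with -0.30 against the paced dogs. Summed fibroblast signal was 34547 to 62841 in the breeds and 31487 to 47454 in the mongrels, which overlapped. The part of fibroblast number in the matrix rises was not tested.

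Smooth muscle and pericyte genes rose in 4 of 12 cases and fell in 0 (33.3%, against 4.92% of all genes), with a median of 0.55. With L and R left out 5 rose and 1 fell, and with the actin covariate limma called 0, with 4 higher and 1 lower at an unadjusted p under 0.05. MCAM, an adhesion molecule of vessel walls, read 61, 42.1 and 109 in the paced dogs, 311, 274.5 and 302 in the controls, 526, 861 and 738.5 in the Dobermans and 291, 228, 263 and 260.2 in the Boxers. The Boxers overlapped the controls (pooled log2 1.47, adjusted p = 0.00146). CRIP1, a LIM-domain protein, was at 7842 to 21631 in the Dobermans, while the Boxers, at 3680.2 to 5693, overlapped the 3069 to 5603 of the mongrels (log2 0.95, adjusted p = 0.0194, 0.0513 without P1). ACTA2, smooth muscle actin, differed by 0.73 (adjusted p = 0.0357), and missed the threshold with each single sample left out except P1, LV01, Doberman K or L (up to 0.0846). The summed signal of these markers was 46321 to 93483 in the breeds and 37887 to 50099 in the mongrels. Against the controls alone 0 of the 12 genes passed. The list medians there were 0.42 in the Dobermans, 0.24 in the Boxers and -0.28 in the paced dogs. Of 11 endothelial genes, FLT1, a VEGF receptor, fell by 0.60 (adjusted p = 0.0405, up to 0.0929 with each single sample left out except Doberman K, L, R or Boxer 3) and 0 rose.

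Of 16 macrophage and monocyte genes, 1 rose (6.25%, against 4.92% of all genes) and all 16 had a pooled difference above 0, as did 2594 of the 5242 genes, with a median of 0.56. Without Dobermans L and R 3 of the 16 rose, and with the actin covariate 0. CCL2, the chemokine that draws monocytes, read 258, 266 and 349 in the controls, 509.8, 269 and 405 in the paced dogs, 2103, 783 and 753 in the Dobermans and 852, 523, 479.7 and 1219 in the Boxers. Boxer 3 and paced dog LV01 crossed, and the difference was 2.57-fold (log2 1.36, SE 0.28, adjusted p = 0.0144). The macrophage sum was 6912 to 18342 in the breeds and 4743 to 8630.1 in the mongrels. Lymphocyte genes moved in opposite directions. CD3E, a chain of the T cell receptor complex, read 26.3, 47.9 and 29.6 in the paced dogs, 314, 414.5 and 339.7 in the controls, 638, 1193 and 927 in the Dobermans and 383, 389, 199.8 and 293 in the Boxers. NKG7, a granule protein of killer cells, read 746, 581 and 556 in the paced dogs, 102 to 114 in the controls and 42.7 to 195 in the breeds. Both passed in the pooled comparison (log2 1.99 and -1.51, adjusted p = 0.000359 and 0.00727), and against the controls alone neither did (0.55 and -0.33, adjusted p = 0.252 and 0.587). CCL5 rose by 0.84 (adjusted p = 0.0487, up to 0.11 with each single sample left out except LV04, Doberman K or Boxer 4). Of 8 interferon response genes 0 passed in limma, with MX1, an antiviral GTPase, at 1.24 (adjusted p = 0.124), and 1 had an unadjusted p under 0.05. Without L and R 5 of those 8 rose, where K is the only Doberman left. K was the highest of the 13 arrays in 7 of the 8, and MX1 read 6731 in K and 234 to 881 in the other samples.

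The contractile apparatus showed little that was common to the breeds. Of 22 heart muscle markers 0 passed in limma and 6 had an unadjusted p under 0.05, 4 higher and 2 lower. Of 32 sarcomere genes 2 rose (6.25%) and 1, ACTA1, fell (3.12%), near the 4.92% and 3.49% of all genes. Without Dobermans L and R 2 rose and 3 fell, and with the actin covariate limma called 0, with 1 higher and 3 lower at an unadjusted p under 0.05. MYH7, the slow myosin heavy chain, was at 25696 to 61099 in the breeds and 23251 to 39028 in the mongrels (log2 0.29, SE 0.18, adjusted p = 0.311), with a sign that turned under quantile normalization (-0.16). TTN, titin, differed by 0.38 (adjusted p = 0.158), and in both genes Dobermans L and R were highest. TPM2 and TPM3, tropomyosins, rose by 0.37 and 0.77 (adjusted p = 0.0374 and 0.035), and missed the threshold, TPM2 with each single sample left out except Doberman K, L or R (up to 0.0835) and TPM3 with each single sample left out except P9, LV01, Doberman K or L (up to 0.0881). TPM2 read 2840 to 3187 in the Dobermans and 1517.5 to 1656 in the Boxers, which were no higher than the 1531 to 1851 of the mongrels. HSPB8, a small heat shock protein of muscle, was above all mongrels in all breed samples, at 14979 to 21852 in the Dobermans and 12274 to 12816 in the Boxers against 9977.5 to 11728 (log2 0.48, adjusted p = 0.0213, up to 0.0558 without P1 or LV01), and its other probe sets differed by a mean of -0.03.

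In calcium handling, 1 of 19 genes rose, PPP3CC, and 1 fell (5.26% each, against 4.92% and 3.49% of all genes), and without Dobermans L and R 1 rose and 2 fell. With the actin covariate limma called 0, with 2 higher and 3 lower at an unadjusted p under 0.05. HRC, a calcium-binding protein of the sarcoplasmic reticulum, read 2373, 2217 and 2239 in the controls, 2180, 1679 and 2505 in the paced dogs, 1193, 899.5 and 541 in the Dobermans and 1582, 1651, 2035 and 1302 in the Boxers. Boxer 3 overlapped paced dog LV02, and the difference was -0.90 (SE 0.18, adjusted p = 0.0123). ATP2A2, the calcium pump of that reticulum, differed by 0.10 (95% interval -0.25 to 0.44, adjusted p = 0.732), with a sign that turned under quantile normalization (-0.07). RYR2, its release channel, was lower in paced dogs and Dobermans, at 3960.3 to 6560 and 3269 to 4793, than in controls and Boxers, at 7556 to 8946 and 6202 to 8148, so the pooled -0.32 (adjusted p = 0.174) averages over unlike groups.

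At the intercalated disc, where heart muscle cells join, 1 of 19 genes rose and 1 fell, again 5.26% each. Without Dobermans L and R 2 rose and 2 fell, and with the actin covariate 0 rose and 1 fell. CDH2, N-cadherin, the adhesion protein of these joints, read 281, 329 and 216 in the controls, 394.5, 377.5 and 243 in the paced dogs, 64, 56.8 and 145 in the Dobermans and 172, 201, 194 and 182 in the Boxers. All breed samples were below all mongrels, the Dobermans most so (log2 -1.16, SE 0.21, adjusted p = 0.00836), and the call held with the actin ratio as a covariate. ITGA7, a laminin receptor of muscle, was above all mongrels, at 4659 to 8392 against 2826 to 4218 (log2 0.84, adjusted p = 0.00502). GJA1, connexin 43, which couples the cells electrically, read 5116.5, 6257 and 6441 in the controls, 1258.5, 1306 and 882 in the paced dogs, 1272, 439.9 and 946 in the Dobermans and 3693, 2557, 3703 and 3403 in the Boxers. It was lowest in paced dogs and Dobermans alike, and its pooled difference of -0.65 (adjusted p = 0.0713) did not pass, while that from the controls did (-1.84, adjusted p = 0.0115). DSP, desmoplakin, differed by 0.07 (adjusted p = 0.854), with Doberman values from 6758.5 to 22209 on both sides of the other samples. PDK4, the kinase that shuts off pyruvate oxidation, was at 1588 to 11056 in the breeds and 9122 to 15207 in the mongrels (log2 -1.27, SE 0.40, adjusted p = 0.0654).

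Smaller lists held single calls. FST, follistatin, rose by 1.01 (adjusted p = 0.00831), yet its other probe sets differed by a mean of -0.64. EDN1, endothelin 1, rose by 1.01 (adjusted p = 0.0305, up to 0.0693 with each single sample left out except LV04, Doberman K, L, Boxer 1 or 3), and ADRA1A, an alpha-adrenergic receptor, fell by 0.97 (adjusted p = 0.0316, up to 0.0701 with each single sample left out except Doberman K, L, R or Boxer 1). DLA-DOA, of antigen presentation, rose by 0.89 (adjusted p = 0.0204, 0.0555 without P1). ANXA2 rose by 0.76 (adjusted p = 0.0145), while its other probe sets differed by -0.30 and 0.39, and neither passed. Of 59 cytosolic ribosome genes RPL10A rose by 1.43 and RPS18 fell by 1.00 (adjusted p = 0.0142 and 0.0395). RPS18 missed the threshold with each single sample left out except P9 or Doberman K (up to 0.0903), and its other probe sets differed by a mean of 0.48. Against the controls, the Dobermans, Boxers and paced dogs differed by 0.19, 0.41 and -0.92 for ANXA2. In the same order these were 1.11, -0.11 and -1.01 for EDN1, 1.41, 0.02 and -0.60 for FST, and 1.20, 0.36 and -1.31 for RPL10A. They were 1.67, 0.35 and 0.24 for DLA-DOA, -0.81, -0.57 and 0.57 for ADRA1A, and -1.81, -0.06 and 0.12 for RPS18.

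Dobermans and Boxers differed from each other in 5066 probe sets (35.4%), 3117 higher and 1949 lower in the Dobermans. That balance turned to 1545 higher and 2121 lower under quantile normalization and to 806 and 4299 under median centring. The count was 304 with Doberman K as the only Doberman, 2213 without L alone, 2754 without R, 8110 without K and 3299 without Boxer 3. The 5066 exceed the 1193 between breeds and mongrels, but the order turned without L and R (304 against 1586) and with the GAPDH ratio as a covariate (56 against 527). Among the pooled calls they differed in 50.9% of the rises and 51.5% of the falls, and among the genes that passed without overlap in 13.5% of the rises and 33.3% of the falls, against 34.1% of all genes. The genes without overlap were picked by these same breed values. Against all mongrels the Dobermans differed in 4153 probe sets (29.0%) and the Boxers in 311 (2.17%). Many of the genes described had Doberman and Boxer means within 0.60 of each other on the log2 scale, SHMT2, MIA3 and NCAM1 among them. So did UCHL1, PPP3CC, S100A4, C2 and PMEPA1, which were picked after their values were seen. Their adjusted p-values for the difference between the breeds were 0.322, 0.89, 0.305, 0.211 and 0.765. The 95% interval of that difference was -0.41 to 0.49 for PPP3CC and -0.31 to 1.23 for UCHL1, so differences of up to those sizes remain possible.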

How the data were processed

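RNA from heart tissue of 13 dogs was measured on Affymetrix canine arrays, 1 array per dog. The deposited values are MAS5 signal intensities, which the authors scaled so that the mean of each array without its highest and lowest 2% was close to 500 (500.059 to 500.078). MAS5 is named per the submitters' processing notes, and its version is not given in the sources used here. Of 23836 probe sets, 77 control probe sets were set aside, and 3 signals were 0. Analysis used log2(signal + 16), and 14302 probe sets remained after leaving out those whose mean was below the 40th percentile (6.95 on that scale, a signal of about 108). Array number limits the precision, and no counts underlie these values.

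Gene names came from the platform annotation, in which 10549 probe sets had 1 symbol, 138 several and 13149 none, and the gene table used to update symbols changed 0 of them. Genes with no symbol but a locus number are included in counts only. No pair of arrays held identical values. The labels name no batch.

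Differences were fitted with limma 3.58.1 in R 4.3.3, as 4 group means over all 13 arrays with a trended prior variance, and p-values were adjusted by Benjamini-Hochberg over all tested probe sets. A breed against mongrel difference is the mean of the Doberman and Boxer means minus the mean of the control and paced means. The labels do not state how the samples were taken beyond naming each one, so p-values measure the spread between separately named samples, which may be technical. The procedure was tested on simulated data. Tables and figures were made with Python 3.11.15, numpy 2.4.6, pandas 2.3.3 and matplotlib 3.10.9.

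The members and the gene lists were chosen with earlier results of these data known. Genes were named by rule: up to 12 in each direction with the largest change among calls without overlap of samples, up to 3 in each direction with the smallest p for each breed against each mongrel group, up to 4 members of each list described with the smallest p, and 16 set genes (ACTA1, MYH7, TTN, RYR2, ATP2A2, GJA1, CDH2, DSP, PDK4, SPP1, CILP, COL1A1, COL3A1, IGFBP2, CDKN1A and CLU). Probe sets of the combined pacing rule and those shared by both breeds were named as well, after their values were seen.

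Alternatives were quantile normalization, median centring, added constants of 1 and 64, no filter and the 70th percentile, 1 mean per side, array weights, robust variance, the GAPDH or actin ratio as a covariate, omission of paced, control or Doberman L and R arrays, genes in place of probe sets, other probe sets of a gene, and omission of each sample. No genome coordinates or sequences were used here.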

Additional observations from a re-analysis of the deposited data

Results flagged for a closer look

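The Boxers are the 1 group large enough for a check of single samples, and 4 genes described above had a Boxer far from the other 3. For NCAM1, the adhesion molecule, Boxer 4 read 311.0 and the others 185.4 to 190.0. For DLST of the 2-oxoglutarate dehydrogenase complex, Boxer 3 read 1124.4 and the others 1306.7 to 1340.8. For decorin, DCN, Boxer 2 read 10408.1 and the others 13426.5 to 13985.3. For COL5A1, Boxer 1 read 1194.3 and the others 1088.3 to 1104.1. Chance gives about 1 such sample in 20 groups, and 95 were looked at.

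Of 91 genes or probe sets described, 45 differed between Dobermans and Boxers (limma, Benjamini-Hochberg over all probe sets), 24 lower and 21 higher in the Dobermans. Over the whole array 35.4% of probe sets differed so, and among those called between breeds and mongrels 50.9% of the rises and 51.5% of the falls, so the 45 are no result about these genes. The values that follow are log2 differences, Dobermans minus Boxers. With Doberman K as the only Doberman the count of such probe sets over the whole array was 304 in place of 5066, and their part in the single genes was not tested.

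Dobermans were lower for these genes of fuel use: PYGM (-2.68), ACAT1 (-2.06), LPL (-1.50), MPC1 (-1.42), ACSL1 (-1.35), DLST (-1.20), SUCLG2 (-1.15), NDUFS8 (-0.84), ETFA (-0.80) and IDH3B (-0.77). RPS18 (-1.75), MRPL1 (-1.50) and TIMM8B (-1.26) were lower too, as were connexin 43, GJA1 (-2.01), N-cadherin, CDH2 (-1.05), the calcium-binding HRC (-0.94) and the release channel RYR2 (-0.88). ASB11 (-1.62), FRAS1 (-1.31), HJV (-1.22), FHL2 (-1.17), SECISBP2L (-1.06), TYMS, the thymidylate synthase (-0.82), and CYP3A26 (-0.81) complete the lower values.

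Dobermans were higher for PTGR1 (1.67), CDKN1A (1.60), CLU (1.22), JUNB (1.10) and BNIP3 (0.57). Higher as well were MAP1A (1.74), CRIP1 (1.62), MCAM (1.37), the ACTA1 probe set 1605145_at (1.14), TPM2 (0.91), MYH7 (0.76) and HSPB8 (0.58). CD3E (1.49), FST (1.38), DLA-DOA (1.32), CIAO2B (1.25), EDN1 (1.22), COL22A1 (1.18), ALDOC (0.93), CSTB (0.71) and COL5A1 (0.58) were higher too.

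The hybridization control probe sets, which read RNA added at the bench and no dog gene, had a mean signal of at least 10979.7 on each paced array against 3721 to 5910 on the control arrays. Dobermans L and R were high as well, at 14699 and 9046, while Doberman K was at 4098 and the Boxers at 4202 to 5114. What this does to the values of either side was not tested.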

How the results depend on the processing

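With 3 or 4 arrays a group and a Doberman group whose GAPDH ratios differ widely, most counts moved with the setting, and the cause was not tested. No paired analysis was possible because the 4 groups share no replicate numbers. Signals under about 108 lie near background, where folds depend on the added 16. Alternatives for comparisons other than the pooled, shared and 4-way ones were added after the data were seen, as were those of the list counts.

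The 1193 probe sets between breeds and mongrels became 2295 with no filter, 557 at the 70th percentile, 8 with 1 mean per side, 2669 with array weights, 527 with the GAPDH ratio and 76 with the actin ratio as a covariate, 25 without paced arrays, 1954 without control arrays and 441 as genes. The 9 shared became 16 (quantile), 43 (centring), 51 (no filter), 3 (70th percentile), 25 (weights), 0 (GAPDH), 0 (actin), 14 (without Dobermans L and R) and 4 (genes). The 22 of the combined rule became 8, 3, 13 (added 1), 621 (weights), 11 (GAPDH), 0 (actin), 84 (without L and R) and 13 (genes), the first pair under quantile and centring. Against controls 98 became 42 (quantile), 30 (centring, 10 higher and 20 lower), 2024 (weights), 48 (GAPDH), 1 (actin), 279 (without L and R) and 49 (genes). Against paced dogs 2614 became 3935 (centring), 5656 (no filter), 686 (70th percentile), 1474 (actin), 4328 (without L and R) and 837 (genes). Paced against controls 1747 became 3924 (centring), 4389 (no filter), 220 (70th percentile), 4222 (weights), 2935 (GAPDH), 4407 (without L and R) and 480 (genes). Dobermans against Boxers 5066 became 2602 (70th percentile), 56 (GAPDH), 304 (without L and R) and 1790 (genes). Leaving out 1 sample gave 486 to 4273 for the pooled count, 0 to 19 shared, 0 to 1144 under the combined rule, 8 to 3288 against controls, 1259 to 4615 against paced dogs, 811 to 3315 for pacing and 2213 to 8110 between breeds, and 0 throughout for the 4-way test.

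Scaling moved the balance of directions. Against paced dogs 1145 higher and 1469 lower became 1714 and 1200 (quantile) or 3258 and 677 (centring). For pacing 1212 and 535 became 629 and 846 or 530 and 3394, and for Dobermans against Boxers 3117 and 1949 became 1545 and 2121 or 806 and 4299.

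Of 81 called genes or probe sets described, 80 passed in the same direction under quantile normalization, 71 under centring, 78 with 1 added, 81 with 64 added, 78 with array weights, 45 with GAPDH, 10 with actin and 69 without L and R, and 48 kept their call in all 13 omissions of 1 sample. Signs turned for these log2 differences: MYH7 (-0.16 quantile, -0.014 GAPDH, -0.065 without L and R), ATP2A2 (-0.073 quantile, -0.073 without L and R, -0.13 without paced dogs, -0.045 without L), DSP (-0.087 weights, -0.15 without paced dogs, -0.12 without L), COL3A1 (0.44 GAPDH, 0.024 actin, 0.72 without L and R, 0.10 without L, where omissions ranged down to -0.79 without K), ACTA1 (0.31 without paced dogs), and, without controls, RYR2 (0.026), GJA1 (0.53) and SPP1 (-0.30). The mean of a gene's other probe sets opposed the one described for MYH7 (-0.49), ATP2A2 (-0.54), COL3A1 (0.23), TTN (-0.25), HSPB8 (-0.026), IDH3B (0.20), FST (-0.64), RPS18 (0.48), PAM16 (0.021), CIAO2B (0.047), ASB11 (0.18) and KDM1A (0.0058).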
